A study of Mus musculus with 15 samples.

Results

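The genes described here drive mitosis, the separation of replicated chromosomes, and cytokinesis, the division of the cell body that follows it. Of 45 listed genes, 41 had a probe set annotated to that symbol alone and are described, among 8251 genes represented in the same way. The brightest probe set over the 15 arrays stands for each gene. Ccnb1, Cdc25b, Bub1b and Hmmr have none under that rule and were not analysed here. The listing used no measured value, but it was made with earlier results of these data known.

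The cells were RAW 264.7, an established mouse macrophage line and the only source of RNA in the study, so every group is 1 cell line. RANKL, a cytokine of the tumour necrosis factor family, turns such cells into osteoclasts, the bone-resorbing cells that form by fusion and hold several nuclei. The labels give medium with RANKL on days 0 and 3 for the RANKL cells (1 array at day 1, and 2 each at days 2, 4 and 5) and the same medium without it for the control cells (1 array at days 1 and 5, and 2 each at days 2, 3 and 4). That medium was serum-free in all groups, no dose is stated, and RANKL cells of day 3 were not analysed here. Per the labels, the RANKL cells of days 4 and 5 were multi-nuclear and every other group mononuclear.

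A cell enters mitosis when Cdk1 is switched on by B-type and A-type cyclins, with the polo-like and Aurora kinases acting beside it. The spindle checkpoint holds the cell until each chromosome is attached. The anaphase-promoting complex with Cdc20 then marks securin (Pttg1) and the cyclins for destruction, so that the chromosomes part. Midzone proteins set where the cell is cut: the chromosomal passenger complex (Aurkb, Birc5, Incenp), the bundler Prc1, the kinesins Kif4 and Kif20a, and centralspindlin with Racgap1, which brings in Ect2, the activator of the small GTPase RhoA. Transcripts of most of these genes are high in dividing cells and low in resting ones.

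Values are MAS5 signals, linear brightness units on arrays that each have a 2% trimmed mean of 500. Signals of different genes are not set against each other, since probe sets differ in brightness at the same RNA level. Differences are on the scale of log2(signal + 32), which understates the change of dim genes. They come from limma fitted to all 12422 probe sets with 1 mean per group, and a gene passed the test at a Benjamini-Hochberg adjusted p under 0.05 over all of them. The labels do not say whether replicates came from separate cultures, so a p-value may measure only technical spread.

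The labelled cell types were checked against listed markers. All 10 macrophage markers were represented, with a summed signal of 29801 to 58491 in RANKL cells and 47203 to 62976 in control cells. The 2 lowest sums were those of RANKL day 5, 36736 and 29801, against 53097 and 55280 at RANKL day 4 and 53632 at control day 5. Such a sum follows its brightest genes, and Cd14 was the brightest on every array but the second of RANKL day 5. The median difference of these markers from the control day 2 mean was -0.58 and -0.52 at RANKL day 5. It was as low at RANKL day 2, -0.56 and -0.52, and was 0.23 and 0.13 at RANKL day 4. Of the osteoclast markers 7 of 11 were represented, and their sum was 6149 at day 1, 12825 and 13986 at day 2, 16997 and 20719 at day 4 and 28628 and 32041 at day 5 in RANKL cells, against 6642 at day 1 and 1393 to 3242 on the later control arrays. The RANKL sum was thus below the control sum at day 1 and above it afterwards. Nfatc1 or Acp5 was the brightest of the 7 on every RANKL array. The median difference of the 7 from the control day 2 mean did not rise steadily in RANKL cells. It was 1.95 and 1.75 at day 2, 1.16 and 1.64 at day 4 and 1.53 and 2.22 at day 5. Over days 2, 4 and 5, 4 of the 7 were higher in RANKL cells (Acp5, Ctsk, Mmp9 and Nfatc1), against 1.49% of all probe sets higher. Tnfrsf11a, the RANKL receptor, differed by 0.59 (limma adjusted p = 0.122), Calcr, the calcitonin receptor, by 0.11 (adjusted p = 0.753) and Itgb3, integrin beta 3, by 0.09 (adjusted p = 0.891). Calcr, at 1.77 to 27.2, and Itgb3, at 8.42 to 78.2, were dim on all arrays. The 7 stromal markers represented summed to 1070 to 1565 in RANKL cells and 961 to 1702 in control cells. The 5 T cell markers summed to 171 to 411 in RANKL cells and 234 to 368 in control cells, and the 4 B cell markers to 347 to 566 in RANKL cells and 341 to 531 in control cells. None of these 16 passed for RANKL minus control over days 2, 4 and 5. The correlation between the 2 arrays of a group, taken over probe sets that do not vary independently, was r = 0.975 to 0.984.

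Promoters of genes of this class often carry the cell cycle genes homology region, TTTGAA or TTCGAA, and CCAAT boxes; in human and mouse cells the first is known as a contact of the MuvB complexes that hold such genes low in resting cells and high in dividing ones. RefSeq promoters (build GRCm38.p6, 250 bases before to 50 after the transcription start) were given for 33 of the 41 genes. For 3 of these genes more than 1 promoter was given, and the first listed was used for every gene. TTTGAA or TTCGAA, read on both strands, was found in 22 of the 33 promoters (66.7%), against 19.4% of the 27025 genes with a promoter in the same table. A match that began within 50 bases of the start was found in 20 of 33 (60.6%), against 5.29% of all genes. CCAAT on either strand was found in 25 of 33 (75.8%), against 37.9% of all genes, and at least 2 copies in 18 (54.5%), against 12.2%. TTCGAA is its own reverse complement and was counted once, and a TTTGAA can share at most 1 base with a CCAAT. Ccna2, Cdc25c, Foxm1, Stmn1, Smc4, Aurkb, Incenp and Kif20a had no entry. Birc5, Cit, Mad2l1, Melk, Plk4, Pttg1 and Tacc3 had neither motif in this window.

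Promoters of 6 genes are shown 5′ to 3′ on the strand of the gene, with the cell cycle homology motifs and CCAAT boxes named above in capitals on whichever strand they lie. Cdk1 (chr10:69352863-69353162, minus strand), Cdc20 (chr4:118437294-118437593, minus strand) and Aurka (chr2:172370521-172370820, minus strand) are shown because they passed the test both where RANKL day 4 was set against day 2 and where day 5 was set against day 4. Ect2 (chr3:27153829-27154128, minus strand) is a cytokinesis gene that was lower at RANKL day 4. Top2a (chr11:99024140-99024439, minus strand) has the most matches and did not pass any test. Its RANKL signals were still lower at day 4 (571 and 542) than at day 2 (881 and 622). Tacc3 (chr5:33657878-33658177, plus strand) changed by a large amount and has no match.
Cdk1: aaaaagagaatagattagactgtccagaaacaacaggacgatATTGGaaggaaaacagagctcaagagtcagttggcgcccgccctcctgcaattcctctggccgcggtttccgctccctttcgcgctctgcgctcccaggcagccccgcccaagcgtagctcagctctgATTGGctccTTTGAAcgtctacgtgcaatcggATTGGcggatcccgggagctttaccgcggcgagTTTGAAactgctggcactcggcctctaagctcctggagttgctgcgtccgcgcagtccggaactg
Cdc20: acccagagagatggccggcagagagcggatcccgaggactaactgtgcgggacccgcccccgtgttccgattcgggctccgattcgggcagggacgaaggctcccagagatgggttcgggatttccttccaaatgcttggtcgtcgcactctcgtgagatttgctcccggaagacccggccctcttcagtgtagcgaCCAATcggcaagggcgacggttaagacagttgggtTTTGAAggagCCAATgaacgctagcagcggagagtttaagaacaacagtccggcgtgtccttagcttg
Aurka: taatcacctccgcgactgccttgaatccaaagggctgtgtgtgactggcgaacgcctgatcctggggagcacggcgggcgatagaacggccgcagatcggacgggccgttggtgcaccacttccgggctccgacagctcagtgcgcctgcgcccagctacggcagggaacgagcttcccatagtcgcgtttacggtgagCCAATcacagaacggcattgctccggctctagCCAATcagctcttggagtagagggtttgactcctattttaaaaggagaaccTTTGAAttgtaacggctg
Ect2: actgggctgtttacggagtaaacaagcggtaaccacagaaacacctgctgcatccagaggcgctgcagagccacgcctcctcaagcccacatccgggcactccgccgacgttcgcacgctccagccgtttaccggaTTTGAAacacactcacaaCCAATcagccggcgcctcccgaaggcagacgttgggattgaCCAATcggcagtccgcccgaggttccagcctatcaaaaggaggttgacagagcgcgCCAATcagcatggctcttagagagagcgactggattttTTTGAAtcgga
Top2a: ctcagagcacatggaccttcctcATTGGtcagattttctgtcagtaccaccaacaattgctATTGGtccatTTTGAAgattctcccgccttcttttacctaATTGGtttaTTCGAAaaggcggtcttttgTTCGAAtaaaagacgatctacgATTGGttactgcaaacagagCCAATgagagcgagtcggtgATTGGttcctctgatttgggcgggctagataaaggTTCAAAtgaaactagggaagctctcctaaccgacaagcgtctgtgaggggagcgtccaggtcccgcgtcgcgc
Tacc3: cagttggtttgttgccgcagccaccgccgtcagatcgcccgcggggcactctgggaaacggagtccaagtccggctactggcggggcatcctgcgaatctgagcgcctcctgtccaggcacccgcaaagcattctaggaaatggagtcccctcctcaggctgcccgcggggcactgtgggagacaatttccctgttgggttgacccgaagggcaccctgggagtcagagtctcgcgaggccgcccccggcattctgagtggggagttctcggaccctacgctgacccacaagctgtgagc
Among the 18 genes with a promoter that were lower in RANKL cells at day 4 than at day 2 (below), 11 held TTTGAA or TTCGAA (61.1%), against 11 of the other 15 genes (73.3%). This is a description with no test.

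In both RANKL and control cells the median of these genes was high at days 1 and 2 and in between at day 5. It was lowest at day 4 in RANKL cells, with no day 3 array analysed, and at days 3 and 4 in control cells. The median difference of the 41 genes from the control day 2 mean was -0.06 at day 1, -0.04 and -0.04 at day 2, -1.06 and -0.96 at day 4 and -0.41 and -0.19 at day 5 on the RANKL arrays. On the control arrays it was -0.06 at day 1, -0.95 and -0.79 at day 3, -0.95 and -0.61 at day 4 and -0.24 at day 5. Over all probe sets the same median stayed between -0.09 and 0.05 on every array. All 6 arrays of days 3 and 4 lay below all 6 arrays of days 1 and 2, RANKL and control together, for 25 of the 41 genes, against 6.21% of all probe sets. Since these are bulk samples, fewer dividing cells and less of each RNA per cell cannot be told apart.

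**Figure D1:**
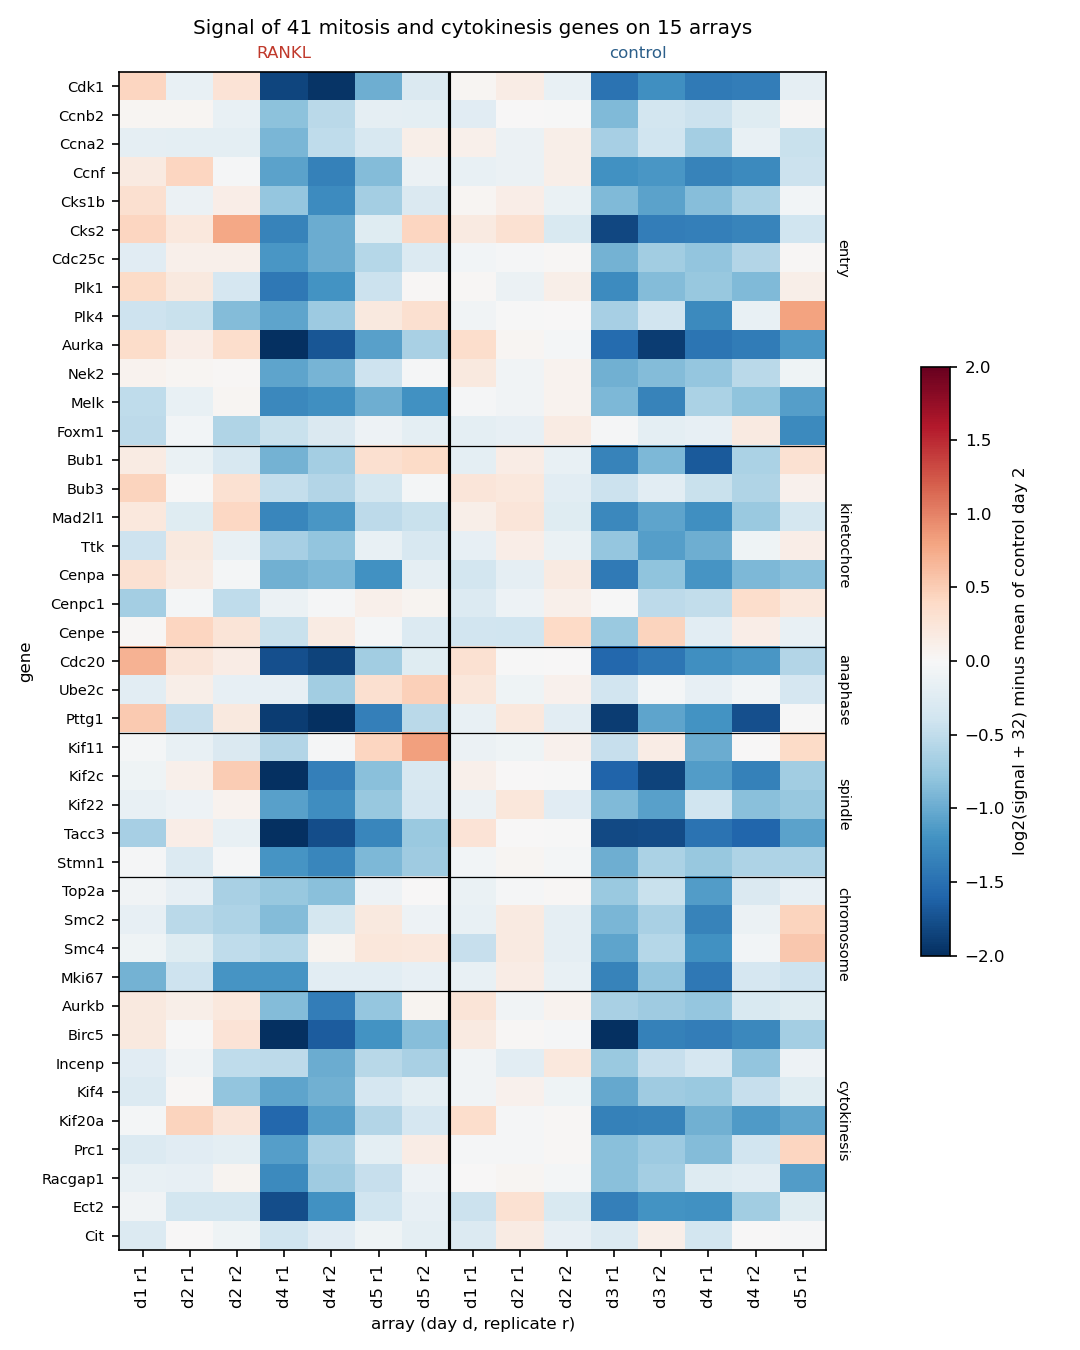
Each row is 1 of the 41 genes, grouped by role, and each column 1 array, with RANKL arrays left of control arrays and days in order within each. Colour is log2(signal + 32) minus the mean of the control day 2 arrays; the RANKL day 4 arrays and the control arrays of days 3 and 4 are the ones where most rows are low, with medians of -1.06 and -0.96 on the RANKL day 4 arrays.

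In RANKL cells, 22 of the 41 genes were lower at day 4 than at day 2 and 0 were higher, against 5.45% of all probe sets lower (limma). The median difference was -0.99 over the 41 genes and 38 of them were negative. Without the second RANKL array of day 2, 12 genes passed. In control cells, 11 of the 41 genes were lower at day 4 than at day 2, against 1.88% of all probe sets, with a median of -0.70. All 11 were among the 22. That control count fell to 0 without either the first day 2 array or the first day 4 array, to 4 without the second day 2 array and to 1 without the second day 4 array. It was 7 with the beta-actin ratio described below as a covariate and 19 when only the brighter 50% of probe sets were tested. The drop had taken place by day 3 in control cells: 21 genes were lower at day 3 than at day 2, against 2.99% of all probe sets, with all 41 differences negative and a median of -0.91. Of these 21, 19 also passed in the RANKL day 4 comparison. Leaving out 1 array of control day 2 or day 3 left between 2 and 11 of them: 2 without the first and 11 without the second day 2 array, 7 without the first and 4 without the second day 3 array. A sign of RNA quality, the ratio of the 3' to the 5' probe sets of beta-actin, was 1.13 and 1.04 on the control day 3 arrays and 1.17 and 1.25 on those of day 2, and with it as a covariate 6 of the 21 passed. In RANKL cells that ratio was 1.18 and 1.34 at day 4 and 1.25 and 1.39 at day 2. Between days 4 and 3 of control culture, 0 of the 41 genes passed, as did 0 of all probe sets (1 gene and 574 probe sets had an unadjusted p under 0.05).

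Of the 13 kinases, cyclins and other regulators of entry, 9 were lower at day 4 than at day 2 in RANKL cells, against 5.45% of all probe sets. They were Aurka, Cdk1, Cks2, Ccnf, Plk1, Melk, Cdc25c, Nek2 and Cks1b. Aurka, the kinase of centrosome maturation and spindle poles, had RANKL signals of 2514 at day 1, 2146 and 2479 at day 2, 413 and 575 at day 4 and 904 and 1227 at day 5. Its control signals were 2486 at day 1, 2005 and 1885 at day 2, 647 and 498 at day 3, 688 and 721 at day 4 and 859 at day 5. Every array of days 3 to 5 lay below every array of days 1 and 2, and in RANKL cells Aurka fell by 2.17 ± 0.21 between days 2 and 4 (SE; limma adjusted p = 0.000444). Cdk1, the kinase that starts mitosis, had RANKL signals of 4109 at day 1, 2756 and 3696 at day 2, 831 and 762 at day 4 and 1535 and 2477 at day 5. In control cells it had 3134 at day 1, 3366 and 2758 at day 2, 1075 and 1278 at day 3, 1127 and 1154 at day 4 and 2696 at day 5. The day 4 RANKL arrays were the lowest of all, and the fall since day 2 was -1.96 ± 0.23 in RANKL cells (adjusted p = 0.000698) and -1.39 ± 0.23 in control cells (adjusted p = 0.0098).

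Cks2, a small protein that binds Cdk1, had RANKL signals of 2832 at day 1, 2416 and 3606 at day 2, 805 and 1039.5 at day 4 and 1754 and 2815 at day 5. The control arrays had 2367 at day 1, 2593 and 1682 at day 2, 569 and 777 at day 3, 787 and 821 at day 4 and 1579 at day 5. It fell by 1.66 ± 0.29 in RANKL cells between days 2 and 4 (limma adjusted p = 0.00392), and the 6 arrays of days 3 and 4 were the 6 lowest. Ccnf, the cyclin F of an SCF ubiquitin ligase, had 1668 at day 1, 1989 and 1443 at day 2, 681 and 551 at day 4 and 786 and 1350.0 at day 5 in RANKL cells. On control arrays it gave 1312 at day 1, 1344 and 1589 at day 2, 616 and 637 at day 3, 561 and 587 at day 4 and 1077 at day 5. Groups of days 3 and 4 did not overlap those of days 1 and 2, and the RANKL day 4 fall was -1.42 ± 0.24 (limma adjusted p = 0.00375). Plk1, the polo-like kinase of mitotic entry and exit, fell by 1.24 (adjusted p = 0.00497) and Cdc25c, the phosphatase that activates Cdk1, by 1.18 (adjusted p = 0.00312) in the same comparison. Melk, a kinase named for embryonic leucine zipper kinase, was dim, at 8.38 to 74.7 over the arrays, and its fall of 1.20 rests on that level.

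The remaining entry genes did not pass between RANKL days 4 and 2. Ccnb2, cyclin B2, differed by -0.63 (95% interval -1.06 to -0.20) and Ccna2, cyclin A2, by -0.51 (-1.01 to -0.01). Plk4, the kinase of centriole duplication, differed by -0.23 (-0.90 to 0.44). Foxm1, the transcription factor that activates many mitotic genes, was named after its values were seen. It had RANKL signals of 1432 to 2104 over all days and control signals of 1896 to 2476 on days 1 to 4 and 881 at day 5. Its RANKL day 4 minus day 2 difference was -0.05 (-0.50 to 0.41). Across the 15 arrays the genes least like the mean of the other 40 were Foxm1 (r = -0.10), Cenpc1 (-0.05), Cenpe (0.24) and Cit (0.37), the last 2 of them dim. Nek2 (0.98), Cdc20, Cdc25c, Cdk1 and Birc5 (0.95 each) were the most like it, a description over arrays that share days and treatment.

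Of the 7 kinetochore and spindle checkpoint genes, Mad2l1 and Bub3 were lower in RANKL cells at day 4 than at day 2, against 5.45% of all probe sets. Mad2l1, the checkpoint protein that binds Cdc20, had RANKL signals of 2685 at day 1, 1963 and 3106 at day 2, 918 and 1016 at day 4 and 1597 and 1689.9 at day 5. Control cells gave signals of 2502 at day 1, 2742 and 1955 at day 2, 932 and 1102 at day 3, 969 and 1368 at day 4 and 1810.3 at day 5. It fell by 1.33 ± 0.25 in RANKL cells (limma adjusted p = 0.00541) and by 0.99 ± 0.25 in control cells (adjusted p = 0.0459) between days 2 and 4. The control call for Mad2l1 was lost in 13 of 24 alternative fits, which are described below. Bub3, its partner in the checkpoint complex, had 7180.4 at day 1, 5219.8 and 6504 at day 2, 3737 and 3491 at day 4 and 4119.9 and 5111 at day 5 in RANKL cells. Its control signals were 6223 at day 1, 6089.6 and 4505 at day 2, 3900.0 and 4511 at day 3, 3843 and 3425 at day 4 and 5566 at day 5. The RANKL fall was small, -0.69 ± 0.20 (limma adjusted p = 0.0473), and control days 2 and 3 overlapped. That RANKL call was lost in 11 of 24 alternative fits.

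Bub1, the checkpoint kinase, had RANKL signals of 669.9 at day 1, 543 and 471 at day 2, 295 and 361 at day 4 and 748 and 786 at day 5. In control cells it had 517 at day 1, 662 and 535 at day 2, 218 and 305 at day 3, 165 and 375 at day 4 and 746 at day 5. It passed in control cells at day 3 against day 2 (-1.11 ± 0.30, limma adjusted p = 0.049), and its day 5 arrays were the 3 highest. That Bub1 call was lost in 14 of 24 alternative fits. Cenpa, the histone that marks centromeres, had 906 at day 1, 809.7 and 703 at day 2, 355 and 372 at day 4 and 294 and 637 at day 5 in RANKL cells. The control arrays had 554 at day 1, 637 and 821 at day 2, 251 and 401 at day 3, 300.0 and 373 at day 4 and 389.6 at day 5. It passed where days 4 and 5 together were set against days 1 and 2 in RANKL cells (-1.00, limma adjusted p = 0.0204), and its RANKL day 4 minus day 2 difference, -0.99 (-1.69 to -0.30), did not. Ttk, the checkpoint kinase Mps1, differed by -0.75 (-1.36 to -0.13), the centromere protein gene Cenpc1 by 0.20 (-0.48 to 0.88), and Cenpe, a kinetochore motor, was dim at 7.24 to 57.3 on all arrays.

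Of the 3 genes of anaphase degradation, Cdc20 and Pttg1 fell between days 2 and 4 in both kinds of cell. Of all probe sets, 5.45% were lower in RANKL cells and 1.88% in control cells. Cdc20, the activator of the anaphase-promoting complex, had RANKL signals of 8316 at day 1, 6064 and 5677 at day 2, 1484 and 1397 at day 4 and 3133 and 4330.2 at day 5. On control arrays it gave 6304 at day 1, 5102 and 5103 at day 2, 1699.7 and 1854 at day 3, 2156 and 2249 at day 4 and 3379 at day 5. No array of day 3, 4 or 5 reached those of days 1 and 2, and the fall between days 2 and 4 was -2.00 ± 0.17 in RANKL cells (limma adjusted p = 0.000298) and -1.20 ± 0.17 in control cells (adjusted p = 0.00544). Pttg1, securin, had 4318 at day 1, 2176 and 3429 at day 2, 779 and 702 at day 4 and 1142 and 2042 at day 5 in RANKL cells. Control cells gave signals of 2696 at day 1, 3467 and 2579 at day 2, 783 and 1418 at day 3, 1283 and 863 at day 4 and 2973 at day 5. It fell by 1.84 ± 0.34 in RANKL cells (limma adjusted p = 0.00563) and by 1.48 ± 0.34 in control cells (adjusted p = 0.0343). Ube2c, the ubiquitin-conjugating enzyme of the complex, did not pass (-0.41, interval -0.98 to 0.16, in RANKL cells).

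Of the 5 spindle genes, 4 were lower in RANKL cells at day 4 than at day 2, against 5.45% of all probe sets. Kif2c, a kinesin that takes microtubule ends apart at kinetochores, had RANKL signals of 1141 at day 1, 1301 and 1733 at day 2, 257 and 448 at day 4 and 659 and 966 at day 5. Its control signals were 1293 at day 1, 1209 and 1206 at day 2, 376 and 312 at day 3, 539.9 and 452 at day 4 and 735 at day 5. It fell by 2.04 ± 0.26 in RANKL cells (limma adjusted p = 0.00105) and by 1.24 ± 0.26 in control cells (adjusted p = 0.0252). Tacc3, which stabilises spindle microtubules, had 270.3 at day 1, 491 and 398 at day 2, 85.9 and 108 at day 4 and 161 and 253 at day 5 in RANKL cells. In control cells it had 543 at day 1, 450.2 and 442 at day 2, 105 and 106 at day 3, 140.0 and 128 at day 4 and 195 at day 5. The falls between days 2 and 4 were -1.88 ± 0.25 in RANKL cells (limma adjusted p = 0.00115) and -1.53 ± 0.25 in control cells (adjusted p = 0.0098), and at day 1 the RANKL array was below the control array, 1 array each.

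Kif22, a chromosome-arm kinesin, had RANKL signals of 3049 at day 1, 3168 and 3557 at day 2, 1584 and 1417 at day 4 and 1993 and 2693 at day 5. The control arrays had 3126 at day 1, 3964 and 2901 at day 2, 1827 and 1589 at day 3, 2559 and 1878 at day 4 and 1984 at day 5. It fell by 1.15 in RANKL cells (limma adjusted p = 0.00605) and differed by -0.62 in control cells (interval -1.10 to -0.14), which did not pass. Stmn1, stathmin, which destabilises microtubules, had 6057 at day 1, 5118 and 6067 at day 2, 2705 and 2481 at day 4 and 3300.3 and 3776 at day 5 in RANKL cells. On control arrays it gave 5923 at day 1, 6351 and 5995 at day 2, 3115 and 3985 at day 3, 3652 and 4012 at day 4 and 4025 at day 5. It fell by 1.10 ± 0.18 in RANKL cells (limma adjusted p = 0.00289). Kif11, the motor that pushes spindle poles apart, did not pass (-0.09, interval -0.84 to 0.67).

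None of the 4 chromosome-structure genes passed in any of the 18 comparisons. Between RANKL days 4 and 2, Top2a, the topoisomerase that untangles sister DNA, differed by -0.39 (-0.95 to 0.17), and Mki67, which coats mitotic chromosomes, by 0.10 (-0.77 to 0.97). The condensin subunit Smc2 differed by -0.03 (-0.76 to 0.71) and Smc4 by 0.12 (-0.62 to 0.86). Mki67 had 854 and 488 at day 2 and 488 and 985 at day 4 in RANKL cells, so that the 2 days overlapped. In control cells the same 4 genes had negative differences of -0.88 to -0.64 between days 2 and 4. The RANKL minus control difference of that change was 0.31 to 0.98, with a lowest adjusted p of 0.752. Between control days 3 and 2 the differences of the 4 genes were -1.07 to -0.60. All 4 had an unadjusted limma p under 0.05 there, as did 2746 of all probe sets (lowest adjusted p = 0.138). RANKL minus control at day 2 was also negative for all 4, from -0.79 to -0.38, and did not pass (lowest limma adjusted p = 0.557). The RANKL day 4 differences are taken from those day 2 levels.

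All 9 midzone and cytokinesis genes had negative differences in RANKL cells at day 4 against day 2, with a median of -0.95. Of these, 5 passed (Birc5, Kif20a, Aurkb, Ect2 and Racgap1), against 5.45% of all probe sets lower. In control cells Birc5 and Kif20a passed between the same days, against 1.88% of all probe sets lower. Birc5, survivin, had RANKL signals of 1617 at day 1, 1395 and 1696 at day 2, 304 and 419 at day 4 and 597 and 765 at day 5. Control cells gave signals of 1595 at day 1, 1424 and 1378 at day 2, 299 and 530.1 at day 3, 517 and 552 at day 4 and 858 at day 5. Its fall was -2.01 ± 0.25 in RANKL cells (limma adjusted p = 0.000907) and -1.34 ± 0.25 in control cells (adjusted p = 0.0166), with days 3 to 5 below days 1 and 2 in both. Aurkb, the kinase of the same passenger complex, had 1200.0 at day 1, 1145 and 1221 at day 2, 561 and 382 at day 4 and 599 and 1096 at day 5 in RANKL cells. Its control signals were 1266 at day 1, 997 and 1105 at day 2, 658 and 630.3 at day 3, 602 and 842 at day 4 and 884 at day 5. It fell by 1.29 ± 0.27 in RANKL cells (limma adjusted p = 0.01) and differed by -0.54 (interval -1.13 to 0.05) in control cells. Incenp, the scaffold of that complex, had 977 at day 1, 1089.6 and 798 at day 2, 792 and 564 at day 4 and 773 and 721 at day 5 in RANKL cells. In control cells it had 1095 at day 1, 989 and 1336 at day 2, 672 and 822 at day 3, 909 and 653 at day 4 and 1074 at day 5. The days lay close together, and the RANKL day 4 minus day 2 difference was -0.46 (-0.99 to 0.07).

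Kif20a, a kinesin of the central spindle, had RANKL signals of 519 at day 1, 743 and 641 at day 2, 159 and 233 at day 4 and 346 and 418 at day 5. The control arrays had 688 at day 1, 527 and 541 at day 2, 189 and 192 at day 3, 260.5 and 225 at day 4 and 245 at day 5. It fell by 1.68 ± 0.22 in RANKL cells (limma adjusted p = 0.00104) and by 1.05 ± 0.22 in control cells (adjusted p = 0.0228). At day 5 both RANKL arrays lay above the single control array (RANKL minus control 0.57), as they did for 49.2% of all probe sets. Kif4, which carries Prc1 to microtubule ends, had 359 at day 1, 448 and 240.1 at day 2, 197 and 211 at day 4 and 343 and 382 at day 5 in RANKL cells. On control arrays it gave 416 at day 1, 469 and 414 at day 2, 200.4 and 257 at day 3, 251 and 312 at day 4 and 369 at day 5. The 2 RANKL arrays of day 2 were far apart, and the day 4 minus day 2 difference of -0.62 (-1.21 to -0.02) did not pass. Prc1, the midzone bundler, had 1042 at day 1, 1078 and 1092 at day 2, 571 and 792 at day 4 and 1099.8 and 1396 at day 5 in RANKL cells. Control cells gave signals of 1236 at day 1, 1242 and 1283 at day 2, 692 and 746 at day 3, 679.9 and 956 at day 4 and 1720.0 at day 5. Prc1 passed in control cells at day 3 against day 2 (-0.79 ± 0.21, limma adjusted p = 0.0449), while the RANKL day 4 minus day 2 difference of -0.66 (-1.12 to -0.21) did not pass. That control call was lost in 8 of 24 alternative fits.

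Racgap1, the GTPase-activating subunit of centralspindlin, had RANKL signals of 608 at day 1, 602 and 708 at day 2, 260.3 and 400.0 at day 4 and 483 and 632 at day 5. Its control signals were 679 at day 1, 699.8 and 657 at day 2, 365 and 411 at day 3, 564 and 579.5 at day 4 and 296 at day 5. Control day 4 thus lay above RANKL day 4 and the single control day 5 array below RANKL day 5, as for 19.8% and 49.2% of all probe sets. Racgap1 fell by 0.95 ± 0.22 in RANKL cells between days 2 and 4 (limma adjusted p = 0.0164), and differed by -0.23 (interval -0.71 to 0.25) in control cells. RANKL minus control was -0.76 ± 0.22 at day 4 (limma adjusted p = 0.304) and 0.83 ± 0.27 at day 5 (adjusted p = 0.184), and neither passed. Ect2, the exchange factor for RhoA, had 1109 at day 1, 895 and 895 at day 2, 318 and 482 at day 4 and 875 and 1033 at day 5 in RANKL cells. In control cells it had 849.5 at day 1, 1443 and 932 at day 2, 431 and 487 at day 3, 480.3 and 706 at day 4 and 979 at day 5. It fell by 1.13 ± 0.26 in RANKL cells (limma adjusted p = 0.0156). Its day 5 signals lay within the range of the day 1 and 2 arrays of both kinds of cell together. The first RANKL day 5 array, at 875, was below the RANKL arrays of days 1 and 2. Cit, citron kinase of the midbody, was dim at 10.5 to 31.0 on all arrays and did not pass.

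**Figure D2:**
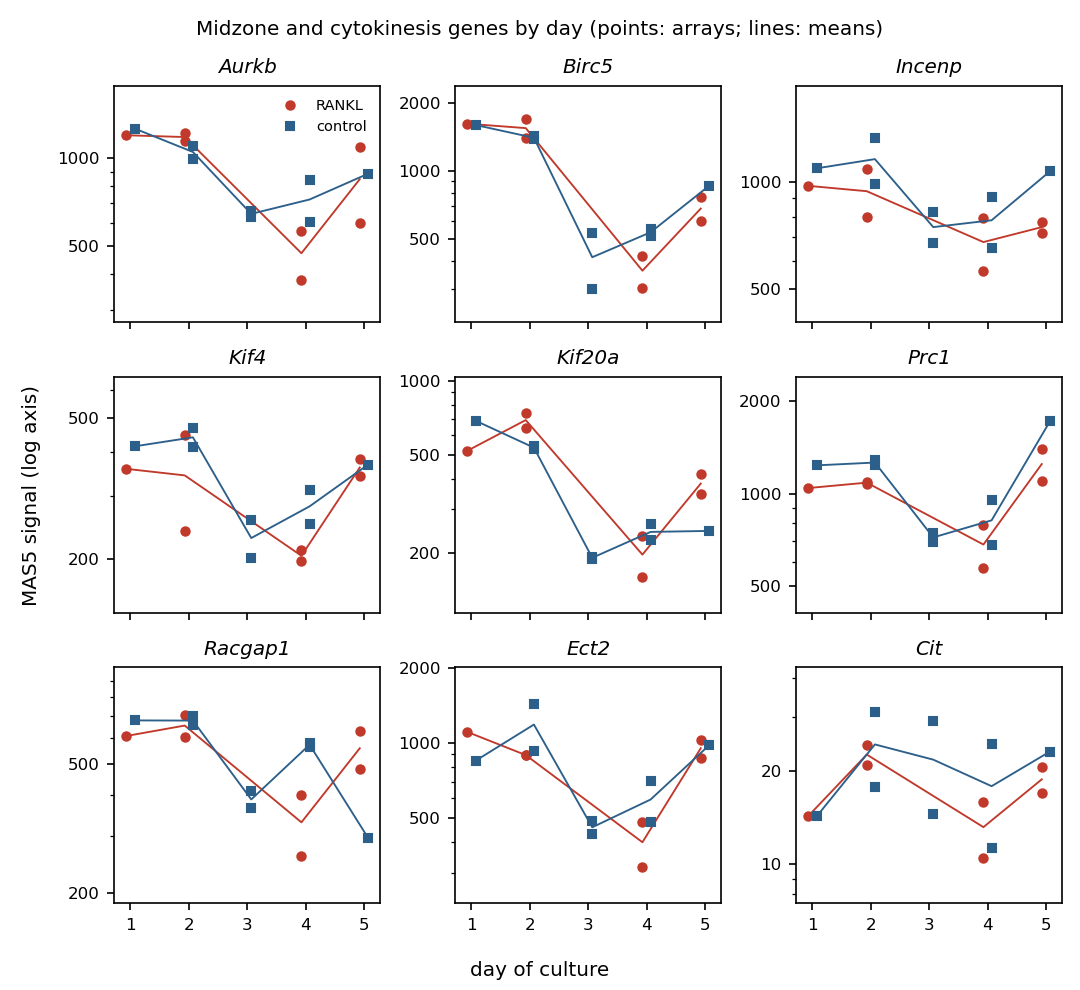
MAS5 signal (log axis) of the 9 midzone and cytokinesis genes against day of culture; each point is 1 array, lines join the day means, circles are RANKL cells and squares control cells, and the RANKL line runs straight between days 2 and 4 because no RANKL array of day 3 was analysed. Birc5 and Kif20a drop in both kinds of cell (Birc5 at 304 and 419 in RANKL cells and 517 and 552 in control cells at day 4), and Racgap1 is 260.3 and 400.0 in RANKL cells and 564 and 579.5 in control cells at day 4.

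RANKL and control cells of the same day were then compared, which sets the cultures labelled multi-nuclear (days 4 and 5) against mononuclear ones of equal age. None of the 41 genes passed for RANKL minus control averaged over days 2, 4 and 5, while 3.43% of all probe sets did (limma, 5 of the 41 and 1864 of all probe sets at an unadjusted p under 0.05). The median difference was -0.12, the lowest adjusted p was 0.211 (Stmn1, -0.30, interval -0.54 to -0.05), and over the 41 genes the 95% intervals reached from -0.99 to 0.78. Without the first control day 4 array, 1 of the 41 passed. At day 4 the count was also 0, against 0.266% of all probe sets, with a median of -0.29, 33 of 41 negative and intervals from -1.25 to 1.12 (6 genes at an unadjusted p under 0.05). All 9 cytokinesis genes were negative at day 4, from -0.76 (Racgap1) to -0.13 (Cit), with a lowest adjusted p of 0.304. Both RANKL arrays of day 4 lay below both control arrays of day 4 for 19 of the 41 genes, against 19.8% of all probe sets, and above them for 0, against 17.5%. Below all 4 control arrays of days 3 and 4 they lay for 8 genes, against 10.4% of all probe sets. The 2 RANKL day 4 arrays held the lowest signal of all 15 arrays for 14 and 10 of the 41 genes. Control arrays held it for 5 and 2 genes at day 3, 7 and 1 at day 4 and 1 at day 5, and the RANKL day 1 array for 1. These counts were not made over all probe sets, so no share can be set beside them.

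**Figure D3:**
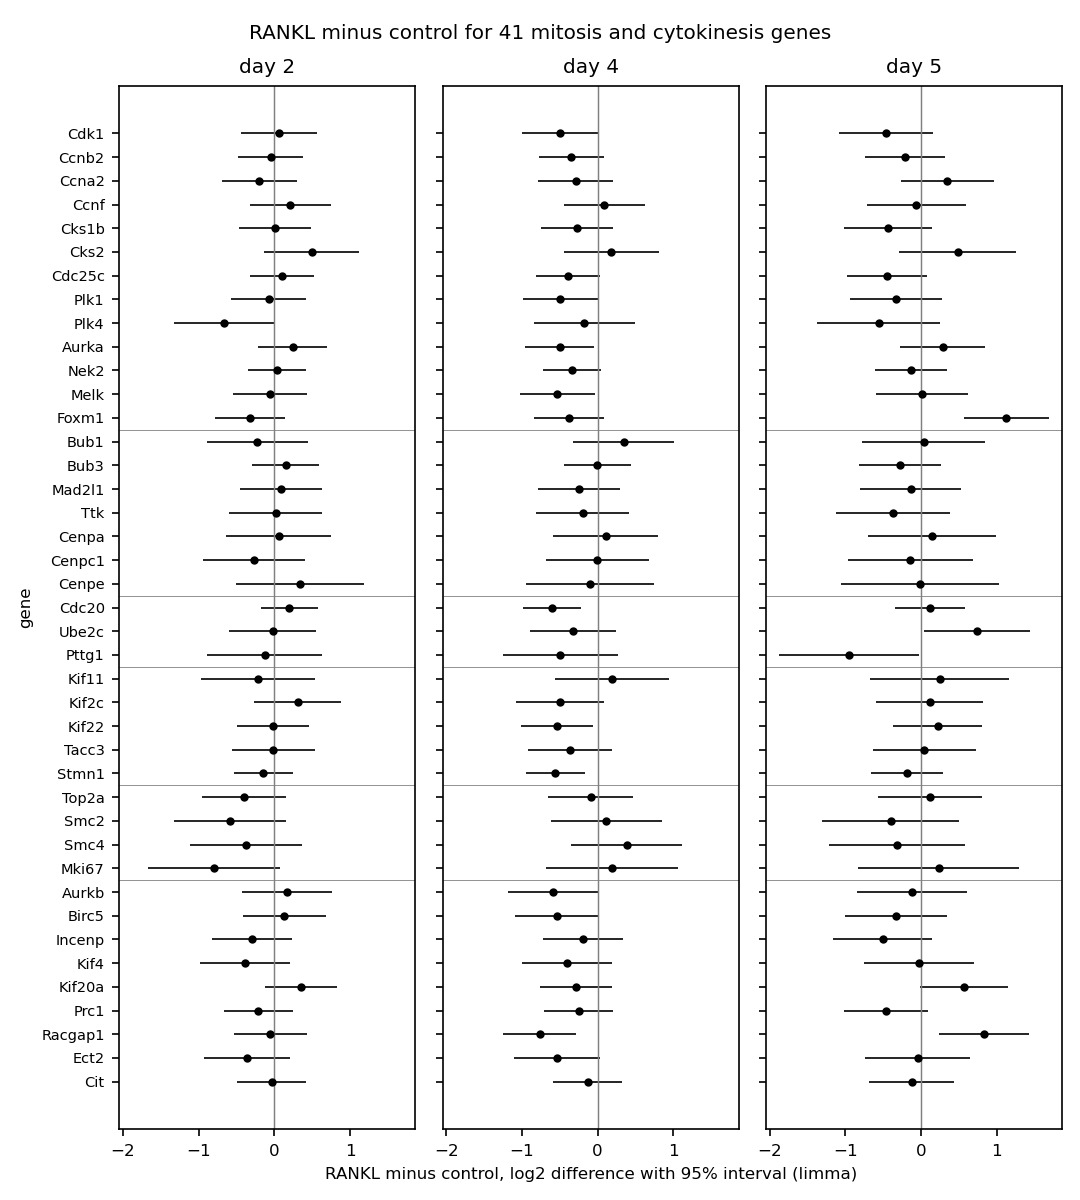
RANKL minus control (log2 difference, horizontal axis, points, with limma's 95% interval as bars) for each of the 41 genes at days 2, 4 and 5, grouped by role. At day 4 the points of 33 genes lie left of 0 with a median of -0.29, and 0 genes pass the test on any of the 3 days.

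At day 2, 0 of the 41 genes passed for RANKL minus control, against 0.853% of all probe sets. At day 5, where control cells gave 1 array, 0 passed, against 0.918%, and 1 when only the brighter 50% of probe sets were tested. The lowest adjusted p at day 5 was 0.0676 for Foxm1 (1.12 ± 0.26), whose control day 5 signal was 881. At day 1, with 1 array each, 0 genes and 0 of all probe sets passed (728 probe sets at an unadjusted p under 0.05). The change between days 2 and 4 was compared between RANKL and control cells directly. It differed for 0 of the 41 genes, against 0.00805% of all probe sets, with a median of -0.30 and intervals from -1.64 to 2.21. So the 22 calls in RANKL cells and the 11 in control cells were not shown to differ gene by gene. Cdc20 came closest among the 41, at -0.80 ± 0.24 (limma adjusted p = 0.442).

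RANKL cells at day 5 were set against RANKL cells at day 4, and 3 of the 41 genes were higher, against 0.225% of all probe sets higher: Cdc20 (1.34 ± 0.17, limma adjusted p = 0.00775), Cdk1 (1.26 ± 0.23, adjusted p = 0.0435) and Aurka (1.06 ± 0.21, adjusted p = 0.0489). The median over the 41 genes was 0.74 and 40 were positive. Both day 5 arrays lay above both day 4 arrays for 37 genes, against 23.9% of all probe sets. The second RANKL day 5 array was above the first for 31 of the 41 genes, by a median of 0.30. The second array was also above the first for 28 genes at RANKL day 4 (median 0.16), 32 at control day 3 (0.25) and 32 at control day 4 (0.22), so replicates of these groups differed in level by similar amounts. At day 2 it was above for 17 genes in RANKL cells (-0.09) and 19 in control cells (-0.01). Over all probe sets that median lay between -0.11 and 0.07 in these groups. Leaving out 1 array moved the count of 3 between 0, without the second RANKL day 4 array, and 7, without the first RANKL day 5 array. It was 1 without any one of the control arrays of days 2, 3 and 4, the RANKL arrays of day 2, the first RANKL day 4 array or the second RANKL day 5 array. The same beta-actin ratio was 1.08 and 1.02 at RANKL day 5 and 1.18 and 1.34 at RANKL day 4, and with it as a covariate 0 passed. The count was 7 among the brighter 50% of probe sets and 1 without the intensity trend. In control cells 0 of the 41 genes passed between days 5 and 4, against 0.0403% of all probe sets, with a median of 0.54. The single control day 5 array lay above all 4 arrays of days 3 and 4 for 29 of the 41 genes, against 18.8% of all probe sets.

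Against day 2, RANKL day 5 was lower for 4 of the 41 genes, against 1.49% of all probe sets: Birc5 (-1.15 ± 0.25, limma adjusted p = 0.0302), Aurka (-1.11 ± 0.21, adjusted p = 0.0192), Melk (-1.03, adjusted p = 0.0301) and Tacc3 (-1.02, adjusted p = 0.0461). This count was 0 without the second RANKL day 2 array or the first RANKL day 5 array, 2 without either control day 2 array, and 7 without the second RANKL day 5 array. With the beta-actin ratio as a covariate it was 0, and among the brighter 50% of probe sets 7. Ect2 (0.08, interval -0.48 to 0.65), Plk1 (-0.13, -0.63 to 0.36) and Prc1 (0.19, -0.27 to 0.64) lay near their day 2 level. Differences from RANKL day 2 were negative for 27 genes and positive for 14, and 0 passed as higher. The positive ones included Plk4 (0.91, 0.25 to 1.58), Kif11 (0.84, 0.09 to 1.59) and all 4 chromosome-structure genes (0.36 to 0.63). In control cells, where day 5 is 1 array, Foxm1 (-1.28) and Aurka (-1.15) were lower than at day 2, against 0.942% of all probe sets. Leaving out either control day 2 array or either control day 3 array left 0 of these 2, and leaving out either control day 4 array or either RANKL day 2 array left 1. The count was 5 among the brighter 50% of probe sets and 0 without the intensity trend or with the beta-actin ratio as a covariate.

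**Figure D4:**
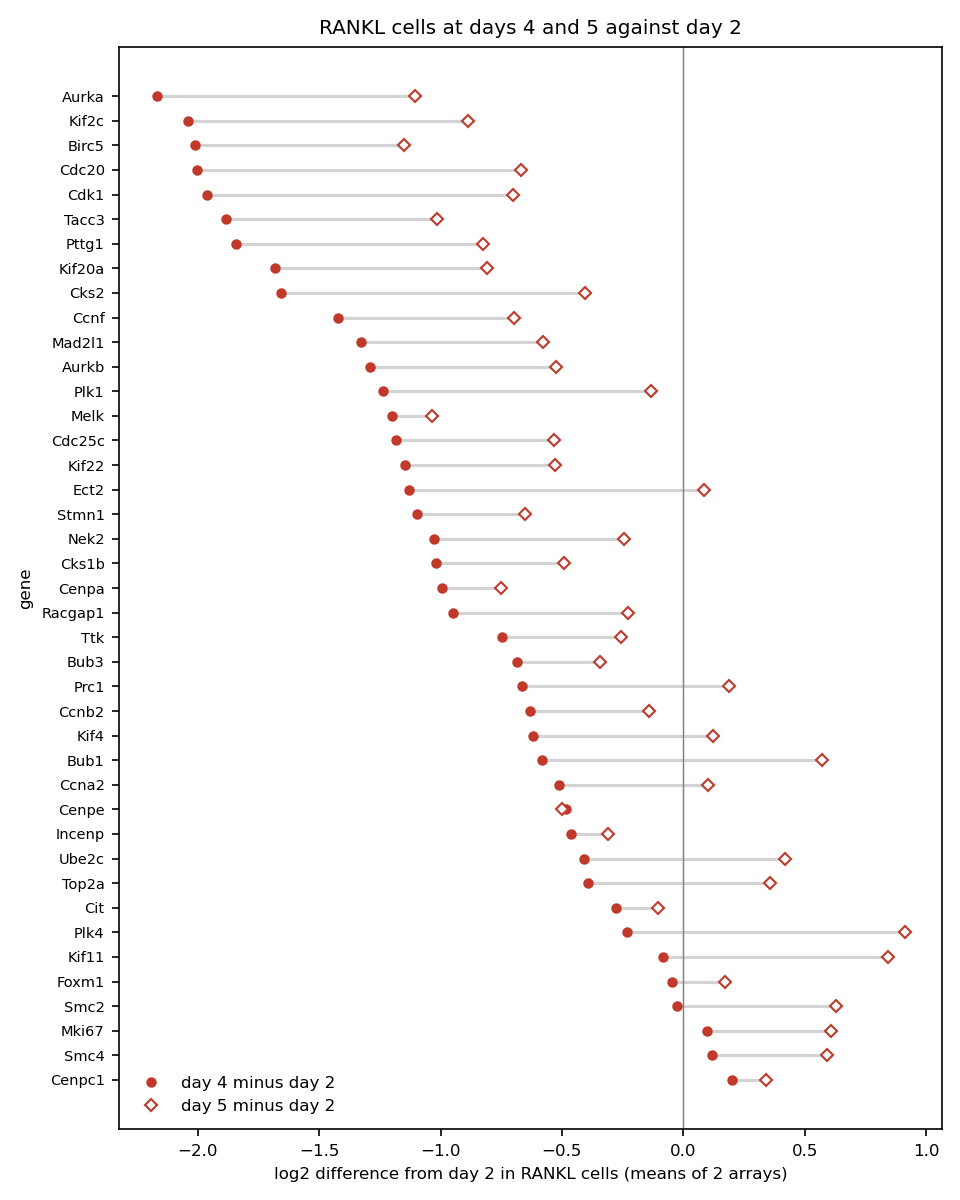
For each of the 41 genes, the log2 difference from the RANKL day 2 mean in RANKL cells at day 4 (filled circles) and day 5 (open diamonds), each the mean of 2 arrays, ordered by the day 4 value. Aurka is at -2.17 at day 4 and -1.11 at day 5, and the day 5 mark lies right of the day 4 mark for 40 of 41 genes.

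When days 4 and 5 together were set against days 1 and 2, 22 of the 41 genes were lower in RANKL cells, against 5.82% of all probe sets, with a median of -0.66. In control cells 12 were lower, against 4.87%, with a median of -0.47. Of these, 11 were called in both. Racgap1 was called in control cells and not in RANKL cells, and the difference between the 2 changes passed for 0 of the 41 genes, against 0.0403% of all probe sets. The Racgap1 call was lost in 14 of 26 alternative fits, with differences from -0.72 to -0.23. Its single control day 5 array was at 296, and those of control day 4 were at 564 and 579.5. The control count was 7 without the first control day 2 array and 6 without the second control day 4 array. With the beta-actin ratio as a covariate it was 3, and with day 3 added to days 4 and 5 it was 19.

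Genes that work beside these in mitosis and cytokinesis were read from lists that were also chosen with earlier results known. Of 41 genes of the contractile ring and of abscission, the final cut, 33 were represented, and in RANKL cells at day 4 against day 2 only Anln was lower and 3 were higher, against 5.45% of all probe sets lower and 7.08% higher, with a median of 0.14. Both counts are near or below those shares. Anln, anillin, which links the ring to the membrane, had RANKL signals of 1503 at day 1, 1387 and 1131 at day 2, 683 and 804 at day 4 and 1309 and 1174 at day 5. The control arrays had 1729.8 at day 1, 2011 and 1829 at day 2, 889.6 and 993 at day 3, 951 and 1219 at day 4 and 1487 at day 5. RANKL arrays were below control arrays on each day, and RANKL minus control over days 2, 4 and 5 was -0.46 ± 0.11 (limma adjusted p = 0.0492). Rab11a, a GTPase of recycling endosomes, was also lower in RANKL cells (-0.43 ± 0.09, adjusted p = 0.0285). These were the 2 of the 33 that passed in that comparison, against 1.94% of all probe sets lower. The 3 higher at RANKL day 4 were Myh9, non-muscle myosin IIA (1.33 ± 0.28, adjusted p = 0.00952), Vps4b, the ATPase of the ESCRT machinery (1.18 ± 0.26, adjusted p = 0.0119), and Septin7 (1.11 ± 0.29, adjusted p = 0.0272). These proteins also serve cell shape and membrane traffic outside division. Myh9 had 7045 and 4597 at day 4 and 3017 and 1671 at day 2 in RANKL cells. In control cells only Anln passed between days 4 and 2 among these 33 genes, -0.81 ± 0.18 (limma adjusted p = 0.0285), near the 1.88% of all probe sets that were lower, with a median of 0.07.

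Of 63 other mitosis genes, 28 were represented, and between RANKL days 4 and 2 there were 7 lower and 1 higher, against 5.45% of all probe sets lower and 7.08% higher, with a median of -0.65. Cdca5, sororin, which holds sister chromatids together, fell by 2.13 ± 0.25 (limma adjusted p = 0.000707), with 115 and 124 at day 4 and 659 and 604 at day 2. The 1 that rose was Nek6, a kinase of spindle assembly (1.04 ± 0.21, adjusted p = 0.00747). In control cells 2 of the 28 were lower at day 4, against 1.88%. Of 15 genes of the anaphase-promoting complex and its enzymes, 11 were represented, with 3 lower in RANKL cells at day 4 (5.45% of all probe sets) and 1 in control cells (1.88%). Ube2s, which extends the ubiquitin chains of the complex, had 895 and 775 at day 4 and 3650.2 and 2334 at day 2 in RANKL cells, and fell by 1.77 ± 0.29 (limma adjusted p = 0.00318) there and by 1.30 ± 0.29 (adjusted p = 0.0305) in control cells.

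**Figure D5:**
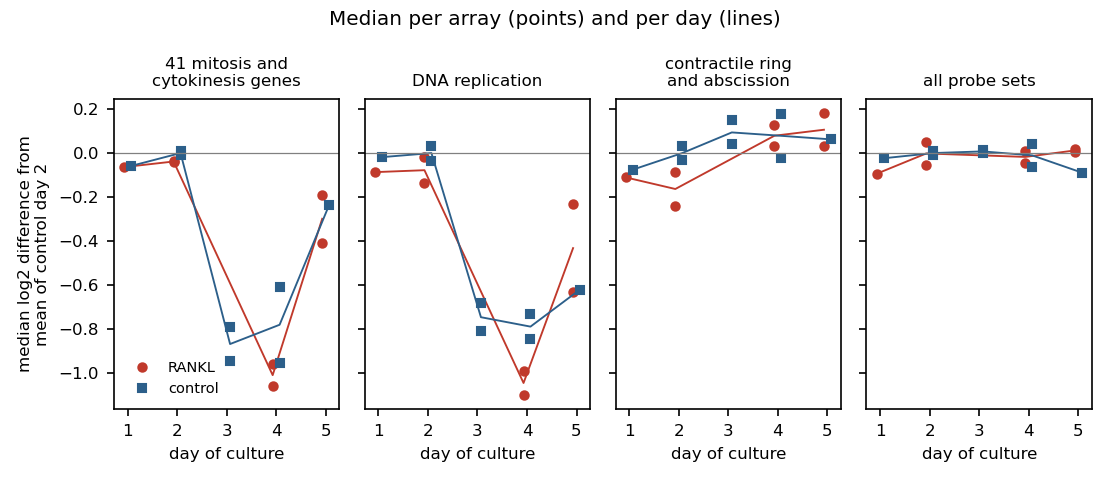
Median log2 difference from the mean of control day 2 on each array (points) and its mean per day (lines) for the 41 mitosis and cytokinesis genes, the DNA replication list, the contractile ring and abscission list and all probe sets, against day of culture, with circles for RANKL cells and squares for control cells. No RANKL array of day 3 was analysed. The 41 genes reach -1.06 and -0.96 on the RANKL day 4 arrays, while all probe sets stay between -0.09 and 0.05.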

How the data were processed

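RNA of RAW 264.7 cells was measured on 15 Affymetrix arrays, 1 biotin-labelled sample each. The deposited values are linear probe set intensities (signals) that the authors made with MAS5, per the submitters' processing notes; its version is not given in the sources used here. Each array has a 2% trimmed mean of 500, and no further normalization was applied. The number of arrays limits the precision. Leaving aside 66 manufacturer control probe sets, 12422 were tested; of these, the annotation lists 1 gene for 10833, several for 396 and none for 1193.

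Each of the 9 groups got its own mean in a limma 3.58.1 fit (R 4.3.3) to log2(signal + 32), with eBayes moderation that follows intensity (residual degrees of freedom 6, prior 5.39). For the 3 groups of a single array, the spread is taken from the other 6. Tests were two-sided with Benjamini-Hochberg adjustment over all probe sets within each of 18 comparisons, of which 10 were added after the data were seen. The procedure was tested on simulated data.

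The genes and lists were chosen with earlier results of these data known. Signals of every array are given for up to 4 genes of each role by size of change among those that passed with replicated arrays, and for every midzone and cytokinesis gene; of other lists, up to 4 genes that passed may be named. Replicate numbers did not pair the arrays: over 15 pairs of groups the correlation of replicate differences ran from -0.17 to 0.12. Alternatives covered the pseudocount (1 or 100), quantile-normalized signals, a filter to the brighter 50% of probe sets, a fit with no intensity trend, a replicate block, the beta-actin ratio as a covariate, averaging a gene's probe sets, other definitions of a comparison, and each array left out.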

Additional observations from a re-analysis of the deposited data

How the results depend on the processing

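No gene's difference changed sign in a comparison where it passed, over 23 to 26 alternatives each. Of the calls, 15 of 22 for culture time in RANKL cells and 12 of 22 between RANKL days 4 and 2 held in every alternative, as did 3 of 12 for culture time in control cells, 2 of 21 between control days 3 and 2, 0 of 11 between control days 4 and 2, and 0 of 3 between RANKL days 5 and 4. With the beta-actin ratio as a covariate, the count of the 41 genes was 3 for culture time in control cells, 7 between control days 4 and 2, 6 between control days 3 and 2, and 0 for RANKL days 5 and 4, RANKL days 5 and 2, and control days 5 and 2. With the upper 50% of probe sets it was 1 for RANKL minus control at day 5, 19 between control days 4 and 2, 7 between RANKL days 5 and 4, 7 between RANKL days 5 and 2, and 5 between control days 5 and 2. Without an intensity trend it was 1 between RANKL days 5 and 4 and 0 between control days 5 and 2. With the replicate block the counts were again 1 and 0, and no other count moved by over 1.5 times. With day 3 added to days 4 and 5, culture time in control cells gave 19. The cause of these moves was not tested. Leaving out 1 array gave 0 to 1 for RANKL minus control over days 2, 4 and 5, 19 to 23 for culture time in RANKL cells, 6 to 17 in control cells, 12 to 23 between RANKL days 4 and 2, 0 to 12 between control days 4 and 2, 2 to 22 between control days 3 and 2, 0 to 7 between RANKL days 5 and 4, 0 to 7 between RANKL days 5 and 2, and 0 to 3 between control days 5 and 2. All other comparisons gave 0 of the 41 genes without each array. Where a gene has other probe sets, these had the same sign wherever the gene passed, except a dim probe set of Stmn1 (0.06 between control days 3 and 2). Dim genes (Melk, Cenpe, Cit) have little signal over background to show a change.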

Other observations

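DNA replication genes were also lower at day 4. Of 53 listed, 47 were represented, and 25 were lower in RANKL cells at day 4 than at day 2 and 21 in control cells, with 0 higher in either and medians of -1.00 and -0.70 (limma; 5.45% and 1.88% of all probe sets were lower). Cdc6, which loads the replicative helicase, had 352 and 291 at day 4 and 1400.2 and 1319 at day 2 in RANKL cells, and fell by 1.98 ± 0.26 (adjusted p = 0.00113). In control cells it fell by 1.52 ± 0.26 (adjusted p = 0.0116). Tk1, thymidine kinase, and Rrm2, the small subunit of ribonucleotide reductase, rose again between RANKL days 4 and 5, by 1.07 ± 0.20 and 0.98 ± 0.18 (adjusted p = 0.0435 for both). None of the 47 genes passed for RANKL minus control over days 2, 4 and 5. Their median difference from the control day 2 mean was -1.10 and -0.99 at day 4 and -0.63 and -0.23 at day 5 on the RANKL arrays, and -0.85 and -0.73 at day 4 and -0.62 at day 5 on the control arrays. On that single control day 5 array the 41 mitosis and cytokinesis genes had a median of -0.24, and the difference between the lists was not tested.

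Of 24 genes of the G1 phase and the E2F family, 17 were represented, with 5 lower in RANKL cells at day 4 than at day 2 (5.45% of all probe sets) and 2 in control cells (1.88%). Mybl2, the B-Myb factor that works with MuvB on mitotic promoters, had RANKL signals of 1819 at day 1, 1704 and 1775 at day 2, 267 and 273 at day 4 and 541 and 1172 at day 5. Its control signals were 1779 at day 1, 984 and 1108 at day 2, 283 and 308 at day 3, 236 and 269 at day 4 and 322 at day 5. It fell by 2.55 ± 0.27 between RANKL days 2 and 4 (limma adjusted p = 0.000589) and rose by 1.46 ± 0.27 between RANKL days 4 and 5 (adjusted p = 0.0435). RANKL arrays were above both control arrays at day 2 and above the control array at day 5, as for 18.8% and 49.2% of all probe sets. RANKL minus control over days 2, 4 and 5 was 0.68 ± 0.17 (limma adjusted p = 0.0559), which did not pass. Of 11 inhibitors of cyclin-dependent kinases and pocket proteins represented, 1 was lower in RANKL cells than in control cells over days 2, 4 and 5, Cdkn2d, the p19 inhibitor of the G1 kinases (-0.73 ± 0.12, limma adjusted p = 0.00753), against 1.94% of all probe sets lower. It had 609 and 620.3 at day 2, 586 and 436 at day 4 and 652 and 580.0 at day 5 in RANKL cells, against 723 and 726 at day 2, 923 and 871 at day 4 and 1418 at day 5 in control cells, so that the 2 kinds of cell did not overlap on these days.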
